A study of Homo sapiens with 9 samples.

Results

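The transcripts of 31 genes for histone chaperones, chromatin remodellers, high-mobility-group (HMG) proteins and heterochromatin proteins were followed in U937 cells, a human monocytic line, that carried a short hairpin RNA (shRNA) against the chromatin protein DEK or the vector alone. The array held 47 named probes for 30 of the genes and none for BAZ1B. A probe was kept if it was detected above the negative control beads at p under 0.01 on 3 or more arrays. This left 39 member probes of 27 genes, among 14230 kept probes of 47323 on the array. HIRA (a chaperone of H3.3), NPM1 (a nucleolar chaperone) and CHD3 (a NuRD remodeller) had no kept probe, and further probes of ATRX, HMGA1 and CBX3 were likewise not kept. At the edge of this limit, an ATRX probe was detected on 3 arrays and was kept, and a CHD3 probe was detected on 1 and was not. The other 38 member probes were detected on all 9 arrays.

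The libraries labelled shDEK14 and shDEK17 (3 each, 6 hairpin libraries in all) came from U937 cells transduced with a lentiviral vector that expressed 1 of 2 shRNAs against the DEK transcript from an H1 promoter. The 3 libraries labelled shEMPTY came from U937 cells transduced with the same vector without an shRNA. All cells, the controls included, had been exposed to lentivirus, sorted for GFP at 48 h and cultured for 4 more days before total RNA was taken. The sample descriptions number the libraries Exp1 to Exp3 in each group, but do not say whether the replicates were separate transductions. The p-values below therefore speak only to the spread among these arrays, part of which may be technical.

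Histone chaperones escort histones and hand them to DNA or to each other, remodellers use ATP to slide, eject or exchange nucleosomes, HMG proteins bend DNA or loosen nucleosome packing, and heterochromatin protein 1 (HP1) binds histone H3 methylated at lysine 9. DEK itself folds and supercoils DNA, acts as a histone chaperone, has been found in complexes with DAXX, opposes the action of SET on chromatin and strengthens HP1 binding. The comparison of the hairpin libraries with shEMPTY therefore asked whether transcripts of proteins with related tasks differed when DEK was targeted, and whether any was higher where DEK was low.

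The DEK signal bears on every comparison below. Its intensity was 2360, 359.4 and 2826 in the libraries labelled shDEK14 replicates 1 to 3, 431.6, 1890 and 532.0 in those labelled shDEK17, and 2510, 293.9 and 2580 in those labelled shEMPTY. Thus shDEK14 replicates 1 and 3 and shDEK17 replicate 2 lay above 1000, shEMPTY replicate 2 lay below it, and these 4 libraries went against their labels. On the normalized log2 scale used from here on (background-corrected, quantile-normalized intensity), DEK spanned 3.53 over the 9 libraries, and its log2 fold change, both hairpins minus shEMPTY, was -0.38 ± 0.88 (SE, limma adjusted p = 0.986). All directions below rest on the labels, and counts are repeated without these 4 libraries. The arrays had mean intensities of 362.2 to 457.2 and 12729 to 14152 detected probes. All 9 monocytic marker genes on the array were kept, as was 1 of 15 markers of other cell types (CD79A, a B cell gene).

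No member passed the test between the label groups. The most negative difference was that of ASF1A, a chaperone that carries histones H3 and H4, and the most positive was that of SUPT16H, a subunit of the chaperone FACT. None of the 39 member probes passed an adjusted p of 0.05 for both hairpins minus shEMPTY, nor did any of the 14230 probes (limma with Benjamini-Hochberg adjustment, percent called 0). The adjusted p of the members lay between 0.911 and 0.9998. An unadjusted p below 0.05 was reached by 2 member probes, ASF1A and NASP, both lower in the hairpin libraries, where 5.4% of all probes reached this level and 2.38% did so by being lower. The methods' t-test was also run for each hairpin against shEMPTY, and the 2 p-values were combined here by Fisher's method. The combination ignores direction and treats the 2 tests as independent, although they share the shEMPTY libraries. It put 3 member probes under an unadjusted 0.05, where 6.72% of all probes lay, and 0 after adjustment, against 1 of all probes. The log2 fold changes of the members ran from -0.53 to 0.33 with a median of -0.01, and 17 were above 0 and 22 below, whereas 50.4% of all probes were above 0 with a median of 0.00. These counts include ATRX, which was near background and gets no fold of its own. In the plot of fold changes, the SE bars of most members cross the zero line. In these bulk samples, fewer cells with a transcript and less of it per cell cannot be told apart.

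**Figure D1:**
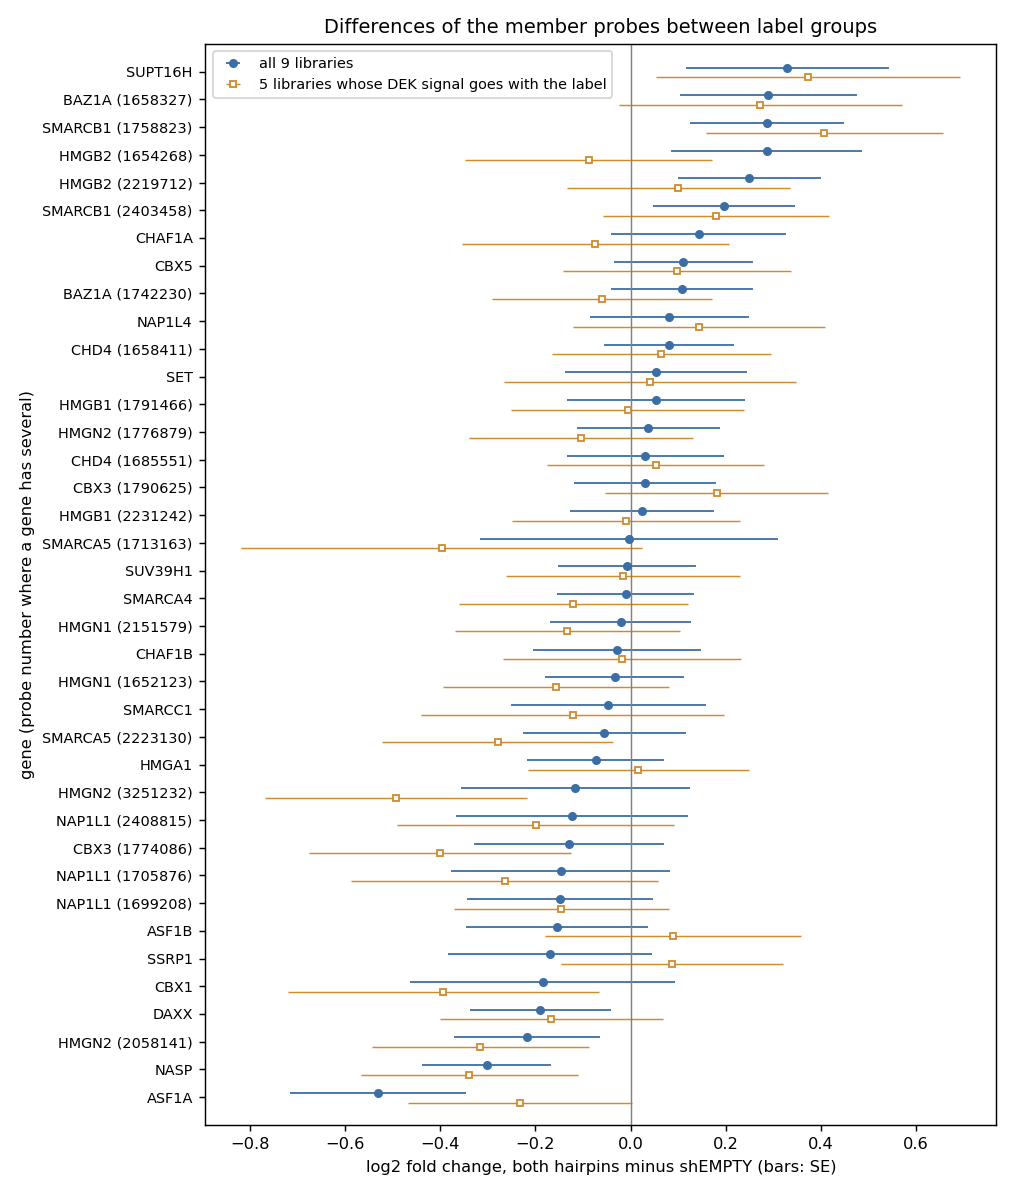
The horizontal axis gives the log2 fold change, both hairpins minus shEMPTY, of the 38 member probes detected on all arrays, with the SE as bars, for all 9 libraries (filled circles) and for the 5 libraries whose DEK signal went with the label (open squares). With 9 libraries the values run from -0.53 for ASF1A to 0.33 for SUPT16H, and with 5 libraries the order of the members is different.

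Each hairpin was also set against shEMPTY on its own. For shDEK14 minus shEMPTY, 0 member probes passed (percent called 0), 2 had an unadjusted p under 0.05 (4.68% of all probes) and the median log2 fold change was 0.04. For shDEK17 minus shEMPTY, 0 passed (percent called 0), 0 had an unadjusted p under 0.05 (4.23% of all probes) and the median was -0.02. Both comparisons share the shEMPTY libraries. In the direct comparison, shDEK14 minus shDEK17, 0 passed (percent called 0) and 1, CBX1, had an unadjusted p under 0.05 (2.21% of all probes). The limma adjusted p of every member was at least 0.953 for shDEK14, 0.999 for shDEK17 and 0.9997 for the direct comparison.

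Sequences just upstream of 4 members are shown first, because these members lead the comparisons that follow. They are the 200 bases before the start of ASF1A (chr6:118893952-118894151, plus strand), NASP (chr1:45583841-45584040, plus strand), CBX1 (chr17:48101187-48101386, minus strand) and SUPT16H (chr14:21384020-21384219, minus strand), from RefSeq on assembly GRCh38.p14, written along the gene's strand. Capitals mark matches to the CCAAT box, to GGGCGG (the GC box), to CCGGAAG (an ETS-type site) or to the E2F-type sites TTTCCCGC and TTTGGCGC, searched on both strands with no overlap between the motifs.
ASF1A: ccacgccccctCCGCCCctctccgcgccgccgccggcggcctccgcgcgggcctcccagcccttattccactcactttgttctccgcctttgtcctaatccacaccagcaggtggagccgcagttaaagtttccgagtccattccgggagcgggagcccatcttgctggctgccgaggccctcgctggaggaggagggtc
NASP: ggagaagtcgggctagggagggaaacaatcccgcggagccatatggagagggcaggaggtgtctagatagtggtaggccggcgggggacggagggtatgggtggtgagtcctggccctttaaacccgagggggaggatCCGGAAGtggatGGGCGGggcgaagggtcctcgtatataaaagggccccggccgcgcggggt
CBX1: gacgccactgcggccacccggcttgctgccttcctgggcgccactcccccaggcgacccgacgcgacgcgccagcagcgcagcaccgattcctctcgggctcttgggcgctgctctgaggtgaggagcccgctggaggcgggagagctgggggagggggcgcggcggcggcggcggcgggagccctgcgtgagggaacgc
SUPT16H: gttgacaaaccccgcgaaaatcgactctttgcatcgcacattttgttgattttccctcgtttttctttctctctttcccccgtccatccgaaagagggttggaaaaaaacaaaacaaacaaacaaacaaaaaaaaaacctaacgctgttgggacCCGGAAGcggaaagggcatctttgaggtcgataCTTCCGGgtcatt
The ASF1A window held GGGCGG once, on the opposite strand, 189 bases upstream of the start. NASP held GGGCGG 50 bases and CCGGAAG 62 bases upstream, and SUPT16H held CCGGAAG on both strands, 46 and 13 bases upstream. CBX1 held no match. Of 35116 promoter windows of this length, 40.1% held GGGCGG, 28.0% CCAAT, 7.71% CCGGAAG and 1.55% an E2F-type site. A match describes the letters only, and factor binding was not measured here.

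Among the histone chaperones, the most negative log2 fold changes were those of ASF1A and NASP. ASF1A, which passes H3 and H4 on to the deposition machinery, had log2 values of 7.87, 8.67 and 8.20 in the libraries labelled shDEK14, 8.74, 8.50 and 8.71 in those labelled shDEK17 and 9.08, 9.08 and 8.78 in those labelled shEMPTY. All 6 hairpin libraries lay below all 3 shEMPTY libraries, although shDEK17 replicate 1 came within 0.1 of shEMPTY replicate 3. The lowest values, in shDEK14 replicates 1 and 3, belonged to hairpin libraries in which DEK was high. The hairpin libraries averaged 8.45 ± 0.35 (SD, n = 6) and the shEMPTY libraries 8.98 ± 0.17 (SD, n = 3), a log2 fold change of -0.53 ± 0.19 (SE), or 1.45-fold lower, with a limma adjusted p of 0.911. For shDEK14 alone it was -0.74 ± 0.21 (SE, limma adjusted p = 0.953) and for shDEK17 -0.33 ± 0.21 (SE, limma adjusted p = 0.999), and the direct difference of the hairpins was -0.41 ± 0.21 (SE, limma adjusted p = 0.9997), or -0.22 without shDEK14 replicate 1.

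NASP, which holds a reserve of soluble H3 and H4, had little spread within its groups. Its log2 values were 8.29, 8.44 and 8.53 in the libraries labelled shDEK14, 8.67, 8.64 and 8.58 in those labelled shDEK17 and 8.91, 8.74 and 8.83 in those labelled shEMPTY. Here too every hairpin library lay below every shEMPTY library. The shDEK14 libraries lay below the shDEK17 libraries, but narrowly, with 8.53 against 8.58 at the edge. Their direct difference was -0.21 ± 0.16 (SE, limma adjusted p = 0.9997). The share of all probes with the hairpins apart in this way was not computed. The log2 fold change was -0.30 ± 0.14 (SE, limma adjusted p = 0.911) for both hairpins and -0.41 ± 0.16 for shDEK14. ASF1A and NASP were the only member probes whose groups did not overlap, 2 of 39 or 5.13%, against 3.09% of all probes (1.39% with the hairpin libraries below). Without shEMPTY replicate 2, in which a list of interferon-induced genes averaged 3.66 above the mean of the 9 libraries, the log2 fold change was -0.48 for ASF1A and -0.34 for NASP.

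The other chaperones overlapped between the groups. ASF1B, the proliferation-linked paralogue of ASF1A, had -0.15 ± 0.19 (SE), and CHAF1A and CHAF1B, subunits of the replication-coupled chaperone CAF-1, had 0.14 ± 0.18 and -0.03 ± 0.18. DAXX, which deposits the variant H3.3 with ATRX, had log2 values of 6.68, 6.45 and 6.37 in the libraries labelled shDEK14, 6.18, 6.46 and 6.45 in those labelled shDEK17 and 6.57, 6.76 and 6.53 in those labelled shEMPTY. One hairpin library, shDEK14 replicate 1, reached into the shEMPTY range, and the log2 fold change was -0.19 ± 0.15 (SE, limma adjusted p = 0.948). Because several of these chaperones serve replicating DNA, the mean deviation of 21 probes for S phase genes is given beside them. It was -0.06, 0.08 and -0.24 in the libraries labelled shDEK14, -0.13, 0.05 and 0.18 in those labelled shDEK17 and 0.07, 0.01 and 0.05 in those labelled shEMPTY. The 13 chaperone probes averaged -0.19, 0.01 and -0.06 in the libraries labelled shDEK14, 0.00, 0.01 and 0.05 in those labelled shDEK17 and 0.10, 0.04 and 0.05 in those labelled shEMPTY. ASF1A was lowest in shDEK14 replicates 1 and 3, where the S phase means were -0.06 and -0.24. NASP was lowest in shDEK14 replicates 1 and 2, where they were -0.06 and 0.08. The part of the cell cycle in the ASF1A and NASP values was not tested.

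The subunits of FACT, which loosens nucleosomes for polymerases, differed in sign over all 9 libraries but not over the 5 that follow their labels. SUPT16H had log2 values of 10.57, 10.57 and 10.29 in the libraries labelled shDEK14, 10.40, 10.60 and 10.01 in those labelled shDEK17 and 9.56, 10.20 and 10.47 in those labelled shEMPTY. The groups overlapped, and 1 control, shEMPTY replicate 1, lay well below all others. The log2 fold change was 0.33 ± 0.21 (SE, limma adjusted p = 0.948), and it was 0.07 without shEMPTY replicate 1 and 0.53 without shEMPTY replicate 3. SSRP1, its partner, had 8.80, 9.50 and 8.63 in the libraries labelled shDEK14, 9.22, 8.84 and 9.47 in those labelled shDEK17 and 9.38, 9.07 and 9.29 in those labelled shEMPTY, with a log2 fold change of -0.17 ± 0.21 (SE), smaller than its error. Without the 4 libraries that went against their labels, SUPT16H had 0.37 ± 0.32 and SSRP1 0.09 ± 0.23 (SE). The 3 hairpin libraries with the lowest SSRP1 were those with high DEK. Among the controls it was the other way round, as shEMPTY replicate 2, with low DEK, had the lowest SSRP1 at 9.07. The share of all probes split in this way was not computed, so SSRP1 is not read against DEK. SET, a chaperone and inhibitor of histone acetylation that DEK is known to oppose, had 0.05 ± 0.19 (SE).

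NAP1L1, a carrier of H2A and H2B, was measured by 3 probes that gave one sign but different library patterns. Its probe ILMN_2408815 had log2 values of 6.21, 5.97 and 6.93 in the libraries labelled shDEK14, 6.48, 7.05 and 7.21 in those labelled shDEK17 and 6.78, 7.09 and 6.43 in those labelled shEMPTY. The shDEK14 libraries reached lowest, and the direct difference shDEK14 minus shDEK17 was -0.54 ± 0.28 (SE, limma adjusted p = 0.9997), with -0.34 when shDEK14 replicate 2 was left out and -0.82 when shDEK14 replicate 3 was. The value of 5.97 in shDEK14 replicate 2 lay near the lowest detected value of that library, 5.88. Over the processing alternatives, with all libraries kept, the direct difference ran from -0.65 to -0.28. For both hairpins minus shEMPTY the 3 probes had log2 fold changes of -0.12, -0.15 and -0.15. NAP1L4, of the same family, had 0.08 ± 0.17 (SE).

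**Figure D2:**
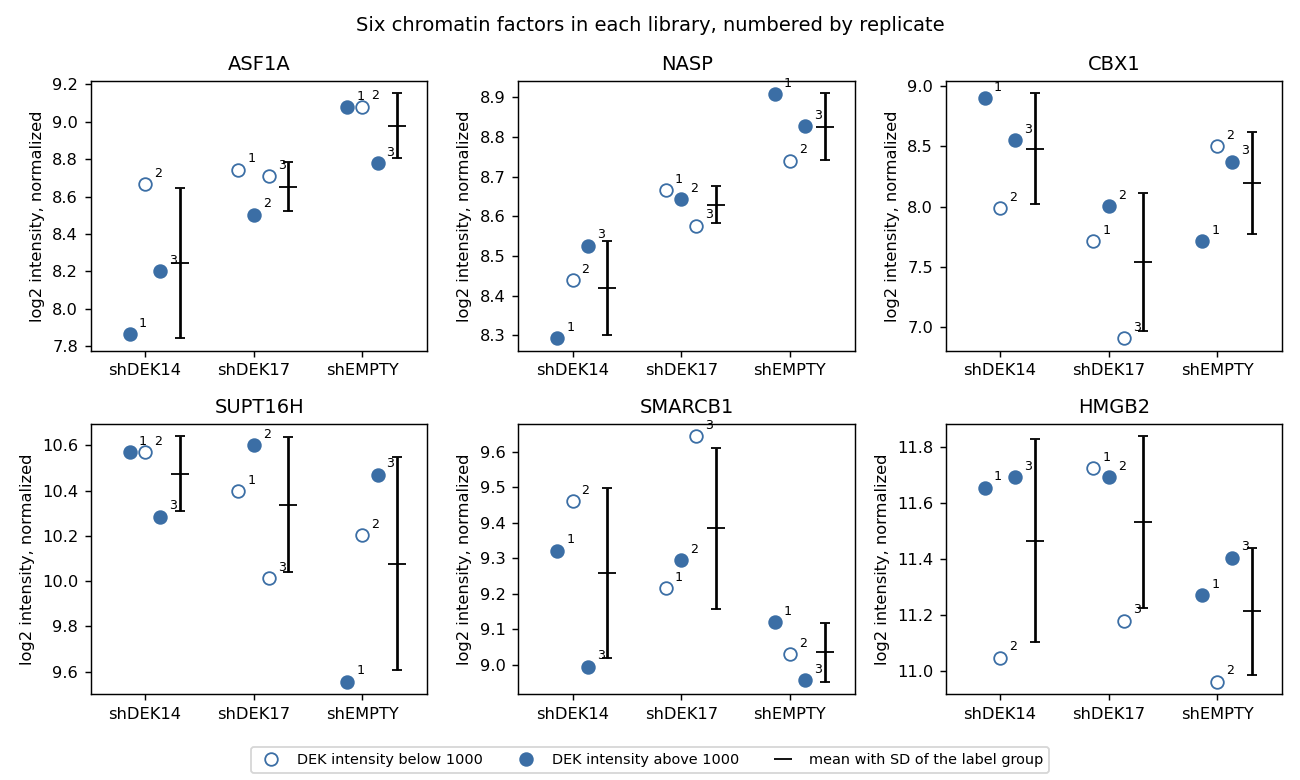
Normalized log2 intensity of ASF1A, NASP, CBX1, SUPT16H, SMARCB1 (probe ILMN_1758823) and HMGB2 (probe ILMN_1654268) in each library, numbered by replicate, with the mean and SD of each label group (n = 3) and with open circles for libraries whose DEK intensity was below 1000. For ASF1A and NASP all 6 hairpin libraries sit below the 3 shEMPTY libraries, while for CBX1 the shDEK17 libraries reach down to 6.91.

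Among the remodellers, the probes of SMARCB1 and BAZ1A were higher on average in the hairpin libraries, and none passed the test. SMARCB1, a core subunit of the BAF (SWI/SNF) complex, had log2 values of 9.32, 9.46 and 8.99 in the libraries labelled shDEK14, 9.22, 9.29 and 9.64 in those labelled shDEK17 and 9.12, 9.03 and 8.96 in those labelled shEMPTY with probe ILMN_1758823. Only shDEK14 replicate 3 fell within the shEMPTY range. The log2 fold change was 0.29 ± 0.16 (SE, limma adjusted p = 0.939), and 0.35 ± 0.19 for shDEK17 alone, which was 0.22 without shDEK17 replicate 3. The second SMARCB1 probe, ILMN_2403458, had 7.86, 7.68 and 7.48 in the libraries labelled shDEK14, 7.49, 7.46 and 7.61 in those labelled shDEK17 and 7.58, 7.33 and 7.29 in those labelled shEMPTY, a log2 fold change of 0.20 ± 0.15 (SE, limma adjusted p = 0.948). The ATPase of this complex, SMARCA4, had -0.01 ± 0.14 (SE) with a range over the 9 libraries of 0.34, and its core subunit SMARCC1 had -0.05 ± 0.21 (SE).

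BAZ1A and SMARCA5 form the ACF complex, in which SMARCA5 is the ISWI ATPase that spaces nucleosomes. BAZ1A probe ILMN_1658327 had log2 values of 7.42, 7.35 and 7.14 in the libraries labelled shDEK14, 7.25, 7.21 and 6.85 in those labelled shDEK17 and 6.55, 6.89 and 7.30 in those labelled shEMPTY. The groups overlapped, with a log2 fold change of 0.29 ± 0.19 (SE, limma adjusted p = 0.948) for both hairpins and 0.39 ± 0.21 for shDEK14. Without shEMPTY replicate 1 these were 0.11 and 0.21, and without shEMPTY replicate 3 they were 0.48 and 0.58. Its other probe had 0.11 ± 0.15 (SE). SMARCA5 probe ILMN_1713163 varied more than most members, with log2 values of 8.76, 8.13 and 9.26 in the libraries labelled shDEK14, 8.81, 8.25 and 7.57 in those labelled shDEK17 and 8.08, 8.28 and 9.03 in those labelled shEMPTY. Each label group held both a high and a low library, so that the log2 fold change was 0.00 ± 0.31 (SE) in spite of an SD of 0.53 over the 9 libraries. Its other probe, ILMN_2223130, had -0.05 ± 0.17 (SE). Without the 4 libraries that went against their labels, probe ILMN_1713163 had -0.40 and probe ILMN_2223130 had -0.28.

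CHD4, the ATPase of the repressive NuRD complex, had small differences with both of its probes. They had log2 fold changes of 0.08 ± 0.14 and 0.03 ± 0.16 (SE). Probe ILMN_1658411 spanned 0.30 over the 9 libraries, the smallest range among the 39, while probe ILMN_1685551 spanned 0.51. ATRX, the remodeller that works with DAXX, was near the detection limit. It was detected in 1 library labelled shDEK14, 0 labelled shDEK17 and 2 labelled shEMPTY, at log2 values of 6.15 in shDEK14 replicate 2 and 6.002 and 6.19 in shEMPTY replicates 1 and 3, and was not well above background in the other 6, where it had 5.06 to 5.61. No fold is given for it.

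Among the HMG proteins, HMGB2, which bends DNA, was higher on average in the 6 hairpin libraries with both of its probes. Without the 4 libraries that went against their labels, probe ILMN_2219712 had a log2 fold change of 0.10 ± 0.23 and probe ILMN_1654268 one of -0.09 ± 0.26 (SE), so that the signs no longer matched. Probe ILMN_2219712 had log2 values of 12.95, 12.71 and 13.06 in the libraries labelled shDEK14, 12.61, 12.99 and 12.86 in those labelled shDEK17 and 12.58, 12.59 and 12.66 in those labelled shEMPTY. Only shDEK17 replicate 1 fell within the narrow shEMPTY range, and the log2 fold change was 0.25 ± 0.15 (SE, limma adjusted p = 0.946). Probe ILMN_1654268 had 11.65, 11.05 and 11.69 in the libraries labelled shDEK14, 11.72, 11.69 and 11.18 in those labelled shDEK17 and 11.27, 10.96 and 11.40 in those labelled shEMPTY. Its log2 fold change was 0.29 ± 0.20 (SE, limma adjusted p = 0.948), or 0.16 without shEMPTY replicate 2, and its 3 lowest libraries, shDEK14 replicate 2, shDEK17 replicate 3 and shEMPTY replicate 2, all had low DEK. The remaining low-DEK library, shDEK17 replicate 1, gave the highest value of all with this probe. How many of all probes had such a pattern was not computed, so HMGB2 is not read against DEK. Its paralogue HMGB1 had log2 fold changes of 0.05 and 0.03 with its 2 probes, and HMGA1, which binds the minor groove of AT-rich DNA, had -0.07 ± 0.14 (SE).

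HMGN1 and HMGN2 bind the nucleosome itself and counter its compaction. The probes of HMGN1 had log2 fold changes of -0.03 and -0.02. HMGN2 had 3 probes that disagreed in sign. Probe ILMN_2058141 had log2 values of 13.67, 13.37 and 13.41 in the libraries labelled shDEK14, 13.35, 13.70 and 13.27 in those labelled shDEK17 and 13.59, 13.72 and 13.72 in those labelled shEMPTY, a log2 fold change of -0.22 ± 0.15 (SE, limma adjusted p = 0.948). The hairpin libraries within the shEMPTY range were shDEK14 replicate 1 and shDEK17 replicate 2. Probe ILMN_3251232 had -0.12 ± 0.24 (SE), with its highest value of 8.52 in shDEK17 replicate 2 and its lowest of 7.47 in shDEK17 replicate 1, and probe ILMN_1776879 had 0.04 ± 0.15 (SE). HMGN2 has many processed copies in the genome, so which transcripts its probes read is uncertain. In all, 10 member genes had several kept probes, which gave 1 sign for 8 genes and both signs for HMGN2 and CBX3.

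CBX1, which encodes HP1 beta, varied most of all members and was the one in which the hairpins differed most. Its log2 values were 8.90, 7.99 and 8.55 in the libraries labelled shDEK14, 7.71, 8.004 and 6.91 in those labelled shDEK17 and 7.71, 8.50 and 8.37 in those labelled shEMPTY. One library of each hairpin, shDEK14 replicate 2 and shDEK17 replicate 2, had nearly the same value, and the other shDEK14 libraries were higher than the other shDEK17 libraries. The direct difference, shDEK14 minus shDEK17, was 0.94 ± 0.32 (SE, limma adjusted p = 0.9997), and against shEMPTY the hairpins gave 0.28 ± 0.32 for shDEK14 and -0.65 ± 0.32 for shDEK17. Without shDEK17 replicate 3 the direct difference was 0.62 and the value for shDEK17 was -0.34. Leaving out the 4 libraries that went against their labels keeps only replicate 2 of shDEK14. The values were then -0.06 for shDEK14, -0.73 for shDEK17 and -0.39 for both hairpins, with a direct difference of 0.68. The highest CBX1 values were in shDEK14 replicates 1 and 3, with high DEK, and the lowest was in shDEK17 replicate 3, with low DEK, but shEMPTY replicate 2, with the lowest DEK of all, had 8.50.

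The other heterochromatin members had differences smaller than their errors. CBX5, which encodes HP1 alpha, the form DEK is known to act on, had log2 values of 9.14, 9.08 and 9.22 in the libraries labelled shDEK14, 9.33, 8.93 and 9.03 in those labelled shDEK17 and 8.95, 8.96 and 9.12 in those labelled shEMPTY, a log2 fold change of 0.11 ± 0.15 (SE). SUV39H1, the enzyme that trimethylates lysine 9 of histone H3, had 10.15, 10.16 and 10.05 in the libraries labelled shDEK14, 9.99, 10.11 and 10.23 in those labelled shDEK17 and 10.33, 10.06 and 9.98 in those labelled shEMPTY, a log2 fold change of -0.01 ± 0.14 (SE). CBX3, which encodes HP1 gamma, had -0.13 ± 0.20 with probe ILMN_1774086 and 0.03 ± 0.15 (SE) with probe ILMN_1790625. The first of these spanned 0.79 over the 9 libraries, more than the median member, with its lowest value in shDEK17 replicate 1 at 5.98 and its highest in shDEK14 replicate 3 at 6.77. The value of 5.98 lay near the lowest detected value of shDEK17 replicate 1, 5.95.

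As a set, the members spanned less than all kept probes did. Of the 39 member probes, 38 were detected on all 9 arrays, whereas the kept probes include ones detected on only 3. Probes of matched signal were not compared. Their log2 values spanned a median of 0.62 over the 9 libraries, from 0.30 for CHD4 to 1.99 for CBX1, where all kept probes spanned a median of 0.82 and DEK 3.53. A range of 1 or more was found for 8 of 39 member probes (20.5%, ATRX among them) and for 30.5% of all probes. The plot of deviations by library shows the members bunched around 0 in each library while DEK lies far out.

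**Figure D3:**
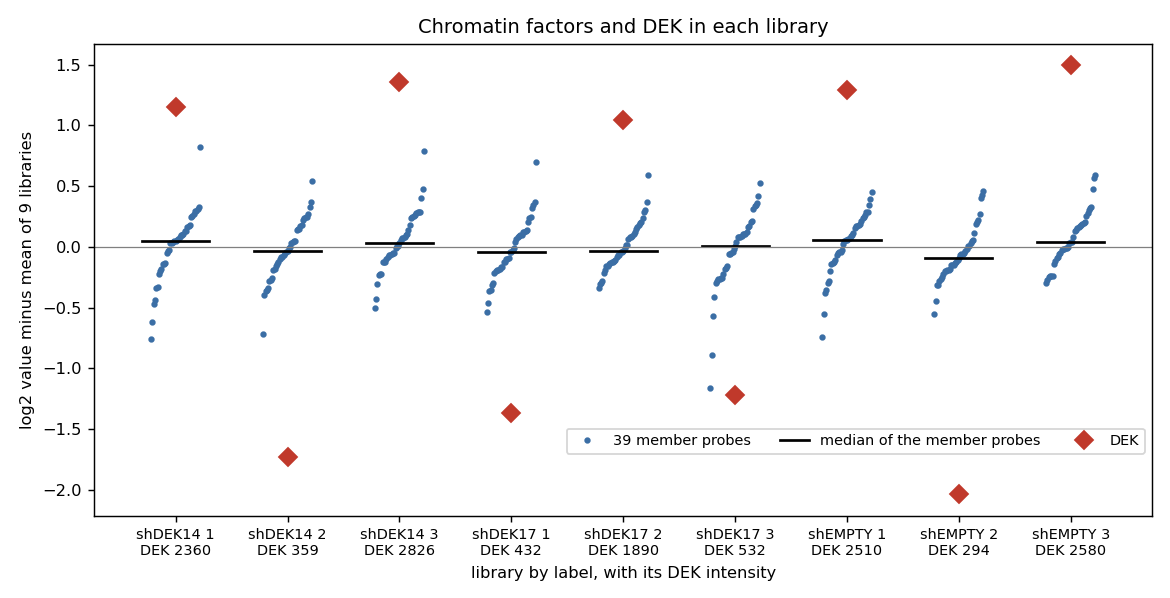
For each library, with its DEK intensity under its label, points show the log2 value of the 39 member probes minus the probe's mean over the 9 libraries, the bar shows their median and the diamond shows DEK. The members lie between -1.16 and 0.83, and DEK lies between -2.03 and 1.49.

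Library by library, the members farthest above their means differed among the 4 libraries with low DEK. In shDEK14 replicate 2 (DEK deviation -1.73), the highest members detected on all arrays were SSRP1 at 0.37 and CHAF1B at 0.33 above their means. In shDEK17 replicate 1 (DEK -1.37), they were NAP1L1 probe ILMN_1705876 at 0.70 and SMARCC1 at 0.37. In shDEK17 replicate 3 (DEK -1.21), they were NAP1L1 probe ILMN_2408815 at 0.52 and SMARCB1 at 0.42. In shEMPTY replicate 2 (DEK -2.03), they were ASF1A at 0.46 and CBX1 at 0.43, followed by NAP1L1 probe ILMN_2408815 at 0.40. This probe was thus near the top in 2 of the 4 libraries, but it had its lowest value of all, 5.97, in shDEK14 replicate 2. That value lay near the detection limit, as the lowest detected value in that library was 5.88. CBX1, high in shEMPTY replicate 2, was the lowest member in shDEK17 replicate 3 at -1.16.

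The DEK intensities fell into separate sets, with nothing between 532.0 and 1890, and the sets are a measured outcome and not a label. For that reason no correlation with DEK is given and the libraries were not pooled by it, and whether any member compensates for low DEK was not tested beyond the comparison of the 5 libraries that follow their labels. The number of member probes above their mean was 24, 17 and 22 of 39 in the libraries labelled shDEK14, 17, 18 and 20 in those labelled shDEK17 and 23, 13 and 22 in those labelled shEMPTY. The matching share over all kept probes was not computed, so these counts are not read against DEK. The median deviation of the members lay between -0.09 and 0.06 over the 9 libraries, and that of all kept probes between -0.01 and 0.02.

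With the 4 libraries that went against their labels left out, 3 hairpin libraries (shDEK14 replicate 2, shDEK17 replicates 1 and 3) were set against shEMPTY replicates 1 and 3. DEK, by which these libraries were picked, then had a log2 fold change of -2.90, which the choice fixes. Of the member probes 0 passed, against 2 of all probes, DEK included (percent called 0.0141), and 0 had an unadjusted p under 0.05, against 3.35% of all probes. The log2 fold changes had a median of -0.07, with 14 above 0 and 25 below. The highest log2 fold changes were SMARCB1 probe ILMN_1758823 at 0.41 ± 0.25, SUPT16H at 0.37 ± 0.32 and BAZ1A probe ILMN_1658327 at 0.27 ± 0.30 (SE). The second SMARCB1 probe had 0.18 ± 0.24, and the second BAZ1A probe had the opposite sign, at -0.06 ± 0.23 (SE). The lowest log2 fold changes were HMGN2 probe ILMN_3251232 at -0.49 ± 0.28 and CBX3 probe ILMN_1774086 at -0.40 ± 0.27 (SE). The other HMGN2 probes had -0.32 and -0.10, and the second CBX3 probe had the opposite sign, at 0.18 ± 0.23 (SE). SMARCA5 probe ILMN_1713163 at -0.40 and CBX1 at -0.39 came next, and the second SMARCA5 probe had -0.28. ASF1A had -0.23 ± 0.24 here, against -0.53 over all 9 libraries, and NASP had -0.34 ± 0.23 (SE). Groups did not overlap for 7 of 39 member probes (17.9%), against 20% of all probes. Besides ASF1A and NASP, these were DAXX, HMGN1, HMGN2 and NAP1L1 (1 probe each, below) and SMARCB1 (above).

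**Figure D4:**
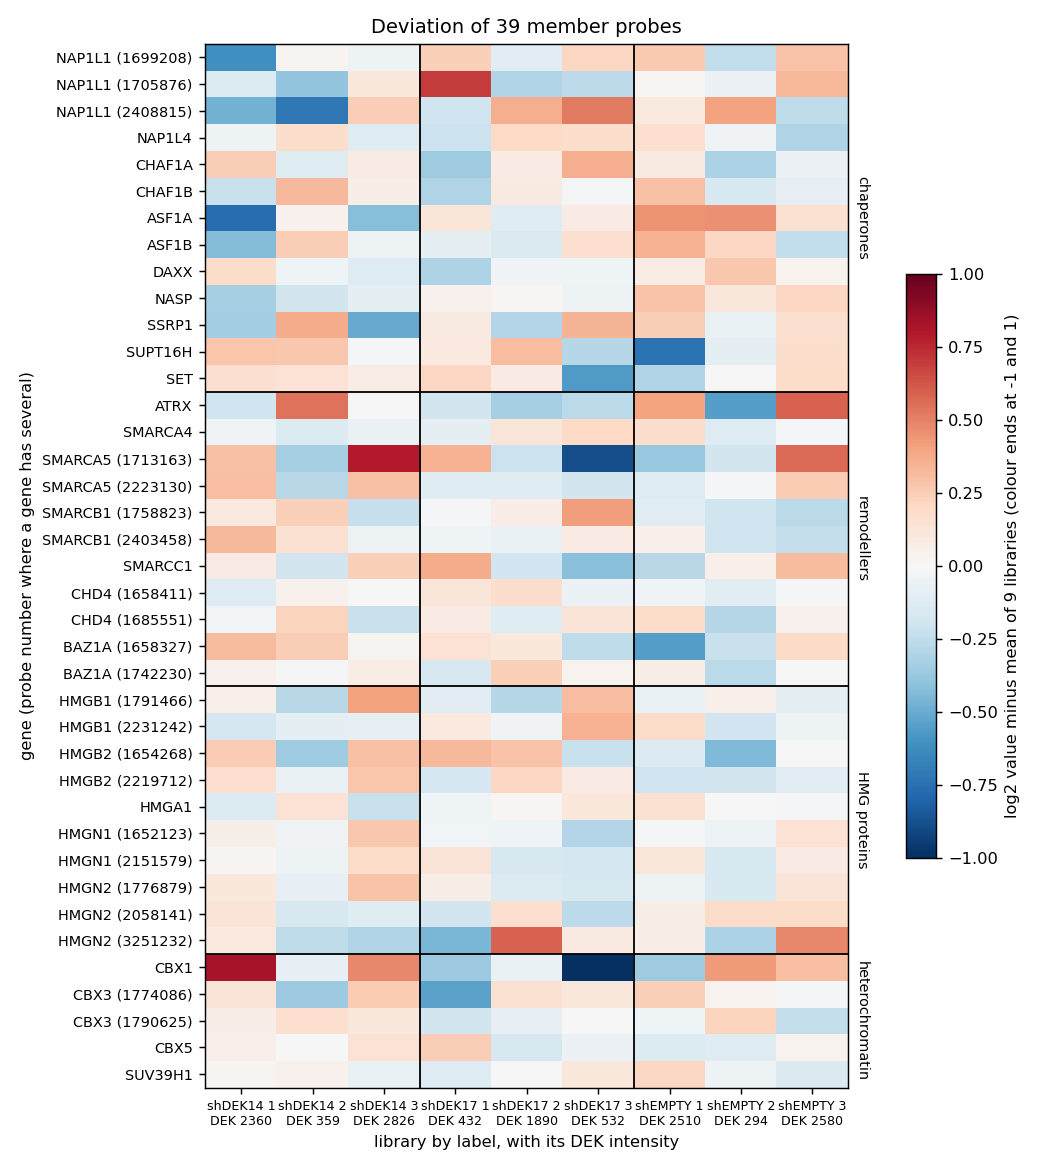
Colour gives the log2 value minus the mean over the 9 libraries for the 39 member probes (rows, ordered by role) in each library (columns, by label with DEK intensity), red for higher and blue for lower. Most rows hold both colours within a label group, and the deepest blue is CBX1 in shDEK17 replicate 3 at -1.16. The row of ATRX lies near background.

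The map of deviations also shows libraries that share low rows across label groups. The libraries shDEK17 replicate 3 and shEMPTY replicate 1 were the lowest pair for 5 member probes (12.8%), those of SET, SUPT16H, SMARCC1, SMARCA5 and BAZ1A, against 6.68% of all probes. This pair was picked out of 36 after the values were seen, one library had low and the other high DEK, and no test was made. The 5 heterochromatin probes averaged 0.22, -0.05 and 0.18 in the libraries labelled shDEK14, -0.19, -0.03 and -0.20 in those labelled shDEK17 and -0.02, 0.10 and -0.01 in those labelled shEMPTY. CBX1 carries most of that spread, with deviations of 0.83 in shDEK14 replicate 1 and -1.16 in shDEK17 replicate 3.

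A wider list of 75 other chaperones, remodellers, HMG and heterochromatin genes likewise held no called probe. Of its 74 kept probes (57 genes), 0 passed for both hairpins minus shEMPTY, 40 were above 0 and 34 below with a median log2 fold change of 0.03, while 0 higher and 1 lower probe had an unadjusted p below 0.05, 1.35% of the list against 5.4% of all probes. The lower probe was that of RUVBL2, an ATPase of the INO80 and TIP60 complexes, with log2 values of 9.68, 9.58 and 9.35 in the libraries labelled shDEK14, 9.54, 9.37 and 9.59 in those labelled shDEK17 and 9.98, 9.94 and 9.80 in those labelled shEMPTY, so that the groups did not overlap, as was so for 3.09% of all probes. Its log2 fold change was -0.39 ± 0.14 (SE, limma adjusted p = 0.911). The highest log2 fold change was that of HMGB3, with 0.41 ± 0.25 (SE, limma adjusted p = 0.948).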

How the data were processed

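Total RNA of 9 U937 libraries (3 groups of 3) was hybridised to Illumina HumanHT-12 v4 arrays. The authors deposited linear bead intensity values without background subtraction, each with a detection p-value whose steps were 1 in 770. Their further table multiplied each array by 1 factor (mean 406.2, medians 110.1 to 119.3). The method behind the factor and the scanner software are not given in the sources used here. Probes were named by the platform annotation (30113 probes with 1 symbol, 8 with several, 17202 with none), and 30074 matched RefSeq of GRCh38.p14.

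Intensities were corrected with neqc (offset 16) and quantile-normalized on the log2 scale in limma 3.58.1 and R 4.3.3. All 14230 kept probes (3032 without a single symbol) entered 1 fit with 3 group means, adjusted by Benjamini-Hochberg. The script was tested on simulated data with planted changes far larger than those of the members. That test does not bear on changes of the members' size.

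The members and lists were chosen with earlier results of these data known. Full values are given for member probes with the 6 largest changes per direction, complete separation, the 3 lowest p in the other contrasts, the 6 largest SDs or disagreeing probes. The promoters were chosen after values were seen. Alternatives covered background, normalization, filter, probe choice, block, weights, variance model, test and left-out libraries.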

Additional observations from a re-analysis of the deposited data

Results flagged for a closer look

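SET was marked because 1 hairpin library stood far from the others. Its log2 value was 11.52 in the library labelled shDEK17 replicate 3 and 12.16 to 12.29 in the other 5 hairpin libraries, against 11.78, 12.09 and 12.27 in the libraries labelled shEMPTY. The gap to the next library was 0.833 of the range of the 6 hairpin libraries, above Dixon's critical value at the 95% level for this number of libraries. Such gaps were looked for in 39 member probes and 1 was found, where chance marks about 1 group in 20. The same library had the lowest value of 8 member probes, SET included (20.5%, against 12.5% of all probes). CBX1 and SMARCA5 probe ILMN_1713163 were among them, while the lowest library for SMARCA5 probe ILMN_2223130 was shDEK14 replicate 2.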

How the results depend on the processing

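For every alternative run, 0 member probes passed the threshold in each of the 4 contrasts, the replicate block included (0 called in each). The sample descriptions number the libraries Exp1 to Exp3 in each group, so same-numbered libraries may come from 1 experiment. The deviations of 9 same-numbered pairs correlated with r of -0.38 to 0.25, 1 of them over 0.1. A library correlated best with its own number in 4 of 18 cases. With 3 libraries a group, and 4 libraries that went against their labels, this check cannot exclude pairing. A fit on only the groups compared was not run for both hairpins, which need all 9 arrays. For 24 named member values, 624 alternative values were computed, of which 604 kept their direction and their side of the threshold, 20 reversed and 0 passed it. The 604 include settings that left the log2 fold change as it was, so its direction could not change. These were the filter, probe choice, block, variance model, test and the fit on only the groups compared. The members had limma adjusted p of 0.911 or more in the main fit, so keeping their side of the threshold says little.

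Without the 4 libraries that went against their labels, DEK, which chose them, was -2.90, 7 member probes had groups apart (17.9%, against 20% of all probes), HMGB2 probe ILMN_1654268 was -0.088 and HMGN2 probe ILMN_1776879 was -0.10. Fewer libraries make gaps between groups more frequent by construction. With 1 library left out in turn, DEK lay between -1.52 and 0.25, the count of members with groups apart between 2 and 4 (4 without shEMPTY replicate 1, where 7.33% of all probes were apart; 3.94% to 8.33% of all probes over these settings), NAP1L1 probe ILMN_2408815 between -0.29 and 0.036, SMARCA5 probe ILMN_1713163 between -0.19 and 0.28, HMGN2 probe ILMN_3251232 between -0.31 and 0.086 and HMGN2 probe ILMN_1776879 between -0.025 and 0.12. Without all libraries numbered 1, DEK was 0.14, NAP1L1 probe ILMN_2408815 was 0.031, HMGN2 probe ILMN_1776879 was -0.012 and 7 members had groups apart (13.5% of all probes). Without those numbered 2, NAP1L1 probe ILMN_2408815 was 0.10, SMARCA5 probe ILMN_1713163 was 0.041 and 4 members had groups apart (13% of all probes). Without those numbered 3, DEK was 0.15, CBX1 0.044, SMARCA5 probe ILMN_1713163 0.30, HMGN2 probe ILMN_3251232 0.12 and 7 members had groups apart (14.1% of all probes). SMARCA5 probe ILMN_1713163 was also 0.0029 with normexp and 0.0048 with no background correction, and HMGN2 probe ILMN_1776879 was -0.014 on the authors' scaled values. The cause of these reversals was not tested. With 3 arrays a group the number of arrays limits the precision, and ATRX, near background, was left out of these values.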
